A study of Mus musculus with 7899 samples.

Results

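The 6 genes described here, Acss2, Acss1, Acly, Slc25a1, Acot12 and Slc33a1, make, break down or carry the acetyl group that cells pass around as acetyl-CoA. They were taken by gene symbol from the read count tables of single sorted mouse β cells, and all 6 were found in each of the 7 tables, among the 21767 genes of the largest tables. Acss2 joins acetate to coenzyme A in the cytosol and nucleus, and Acss1 does the same in mitochondria. Acly splits exported citrate into acetyl-CoA and oxaloacetate in the cytosol, and Slc25a1 is the mitochondrial citrate carrier that delivers that citrate. Acot12 hydrolyses cytosolic acetyl-CoA back to acetate, and Slc33a1 carries acetyl-CoA into the endoplasmic reticulum and Golgi. Cytosolic and nuclear acetyl-CoA is the substrate of fatty acid synthesis, sterol synthesis and the histone acetyltransferases, among them p300. In β cells, glucose carbon leaves the mitochondria in part as citrate, so the Acly and Slc25a1 route is known as one of the arms of anaplerotic metabolism there, while acetate through Acss2 is the route that needs no citrate.

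The study followed β cells of female C57BL/6J mice through pregnancy and after delivery, and asked how Acss2, Stat3 and p300 bear on it. The read counts of 7897 sorted β cells, prepared by Smart-seq3xpress (a full-length, plate-based method), were summed here by group and replicate into 100 libraries of 48 groups, with 2 replicates in 44 groups and 3 in 4 groups. The labels call the replicates biological, and every p-value below measures the spread between them. The time course on standard diet held mice at 9 stages of gestation between G3.5 and G18.5, where the number is the day, mice on days 2, 7 and 14 after delivery (P2, P7 and P14) marked L or NL, read here as lactating and not lactating since the labels do not spell the letters out, and non-pregnant G0 mice.

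The knockout tables set Acss2KO against Acss2WT and Stat3KO against Stat3WT at G0, G14.5 and G18.5, and p300KO against p300WT at G0 and G14.5. A high-fat diet table held HFD_G14.5, HFD_P7NL and HFD_G0 mice without a genotype label, Acss2KO against Acss2WT on high-fat diet at G14.5 and G0, and Acss2WT mice on standard diet at G14.5. The cultures were mouse islets kept for 4 days in 20% human serum, either maternal serum (MS) or normal serum (NS), with 5 µM A485 (an inhibitor of the acetyltransferase activity of p300 and CBP), with 20 µM nifuroxazide (used as an inhibitor of STAT3 signalling) or with the vehicle DMSO, each drug with its own vehicle libraries. The labels give neither the driver nor the allele of the knockouts, nor the part of the gene that was deleted, so reads left in a knockout check the deletion only in part. The labels do not say how many mice a replicate stands for.

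Read sums ran between 13273435 and 181405413 per library, and levels of single genes are counts per 1000000 reads (CPM) after TMM scaling. Sums over lists of cell type markers are plain CPM without TMM scaling, here and below. Ins1 and Ins2 took between 41.5 and 60.7% of the reads of a table, pooled over its cells. The 8 β cell markers summed to between 511265 and 650676 CPM in the time course with no β marker at 0. In the time course the alpha cell list summed to between 408 and 3524 CPM, and the endothelial and stromal lists to at most 3.04 and 0.867 CPM. No cell was found in more than 1 table. In sums of this kind, fewer cells with a transcript and less transcript per cell cannot be told apart.

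The 4 genes with substantial expression are shown here by the 300 bases around their start, because a regulatory sequence near the start is one thing the rule did not use and the members can be compared on. Sequences are those of RefSeq on GRCm38.p6, 250 bases before and 50 bases after the gene's start, 5′ to 3′ on the gene's own strand: chr2:155517793-155518092 on the plus strand for Acss2, chr11:100527951-100528250 on the minus strand for Acly, chr16:17928170-17928469 on the minus strand for Slc25a1 and chr3:63964684-63964983 on the minus strand for Slc33a1. Capitals mark CCAAT, read as ATTGG on the other strand, and CACGTG, which is its own reverse complement.
Acss2: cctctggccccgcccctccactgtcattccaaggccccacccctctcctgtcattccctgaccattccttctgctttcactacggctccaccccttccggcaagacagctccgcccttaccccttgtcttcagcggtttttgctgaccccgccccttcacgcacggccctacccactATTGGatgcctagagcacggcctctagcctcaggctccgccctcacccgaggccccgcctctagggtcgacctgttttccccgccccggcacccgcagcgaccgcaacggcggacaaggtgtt
Acly: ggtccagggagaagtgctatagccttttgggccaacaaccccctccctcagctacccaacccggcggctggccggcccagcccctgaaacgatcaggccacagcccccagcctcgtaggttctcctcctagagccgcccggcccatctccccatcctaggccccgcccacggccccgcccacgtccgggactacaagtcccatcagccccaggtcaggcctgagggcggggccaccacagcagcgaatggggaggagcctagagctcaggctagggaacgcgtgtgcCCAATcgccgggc
Slc25a1: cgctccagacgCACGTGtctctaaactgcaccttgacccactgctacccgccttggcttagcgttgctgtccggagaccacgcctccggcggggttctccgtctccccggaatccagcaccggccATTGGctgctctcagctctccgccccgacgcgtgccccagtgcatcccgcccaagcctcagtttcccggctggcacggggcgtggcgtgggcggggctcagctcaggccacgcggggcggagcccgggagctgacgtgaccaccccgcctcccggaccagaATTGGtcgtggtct
Slc33a1: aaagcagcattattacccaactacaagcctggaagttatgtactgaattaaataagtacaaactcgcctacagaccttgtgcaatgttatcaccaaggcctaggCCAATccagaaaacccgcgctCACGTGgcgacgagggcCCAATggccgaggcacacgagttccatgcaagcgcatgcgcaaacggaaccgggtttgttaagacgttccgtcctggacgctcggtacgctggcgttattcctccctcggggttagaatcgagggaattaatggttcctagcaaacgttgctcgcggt

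CCAAT was found on either strand in these 4 windows and in neither of the other members, against 37.4% of 32851 RefSeq promoter windows of the same length. CACGTG, the core of many E-boxes, was in the windows of Slc25a1 and Slc33a1, against 7.15% of all windows. GGGCGG, the GC box, was in 5 of 6 windows, Slc33a1 being the exception, against 35.7%. TTCNNNGAA, the spaced palindrome that STAT proteins can bind, was in 0 of 6 windows against 8.3%, and TCACNCCAC, a form of the sterol regulatory element, in 0 of 6 against 1.24%. Both strands were searched, matches of different motifs did not overlap in these windows, and a match is a description of the sequence only. The absence of letters says only that they are not in this window.

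On GRCm38 with GENCODE vM21, Acss2 lies at chr2:155517948-155585724 (plus strand) and Acss1 on the same chromosome at chr2:150618105-150668500 (minus strand). Acly lies at chr11:100476353-100528000 (minus), Slc25a1 at chr16:17925223-17928219 (minus), Acot12 at chr13:91741512-91786148 (plus) and Slc33a1 at chr3:63933507-63964768 (minus). The use of strand in counting was not stated, so exons shared with genes on the opposite strand matter. Acss2 shares 395 exonic bases with Gss, 335 with Acss2os and 197 with Ggt7, at most 3.89% of its exonic length for each of these. Slc33a1 shares 1136 bases, 32.02% of its exonic length, with the antisense gene Gm26850, so its reads and those of Gm26850 cannot be told apart there. Acly and Slc25a1 share no exonic base with another annotated gene.

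Transcripts of the citrate route were more abundant than those of the acetate route. Per kilobase of the deposited gene length, the order Acly, Slc25a1, Slc33a1, Acss2 held in 100 of 100 libraries. In the time course the median was 166.5 RPKM for Acly, 51.4 RPKM for Slc25a1, 20.4 RPKM for Slc33a1 and 9.30 RPKM for Acss2. A read of Acly was found in all 3481 cells of the time course, one of Slc25a1 in 3459 cells, one of Slc33a1 in 3445 cells and one of Acss2 in 3080 cells, which is 88.5% of them.

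Acss1 and Acot12, the mitochondrial synthetase and the hydrolase, were close to undetected. Acss1 had 243 reads over the 35 time course libraries, with no read in 23 of them and at most 3 reads in 31, and its highest level was 1.03 CPM in replicate 2 of G12.5. Only 20 of the 3481 cells held a read of it. Acot12 had 362 reads, none in 12 of the 35 libraries, and its highest level was 0.916 CPM in replicate 2 of G0. A read of Acot12 was seen in 48 of the 3481 cells. Acss1 passed the filter on low counts in the time course table only, Acot12 in all tables but those of p300 and nifuroxazide, and neither passed the test in any comparison in which it was tested (18 for Acss1 and 49 for Acot12, edgeR). For Acss1, 0 of 18 tests were at an unadjusted p under 0.05, and none passed with DESeq2 or limma. For Acot12 the number at an unadjusted p under 0.05 was 3, with 0 calls by DESeq2 and 2 by limma. Both limma calls were for Acot12 below G0 after delivery, at P7L (adjusted p = 0.0198, limma) and at P14L (adjusted p = 0.0365, limma).

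Acss2 rose at 2 of 9 stages of gestation and was above G0 on average at the other 7. The level was 21.4 and 27.8 CPM in the 2 G0 libraries, 23.2 and 29.2 CPM at G3.5, and 32.7 and 33.6 CPM at G5.5. It was 22.1 and 36.3 CPM at G6.5, 36.4 and 37.5 CPM at G8.5, and 32.2 and 35.5 CPM at G10.5. The values at G12.5 were 37.5 and 40.5 CPM, those at G14.5 were 34.99, 36.2 and 35.3 CPM, those at G16.5 were 40.6 and 31.4 CPM, and those at G18.5 were 33.9, 35.8 and 33.8 CPM. All libraries of G5.5 and of G8.5 to G18.5 lay above both G0 libraries, while those of G3.5 and G6.5 overlapped with G0. With 2 or 3 libraries a group such separation was common: 32.8% of the genes tested did not overlap between G14.5 and G0, and over the 51 contrasts of the study the share was between 23.4 and 53.2%, with a median of 41%. In edgeR's quasi-likelihood test with Benjamini-Hochberg adjustment over the 15373 genes tested, Acss2 rose at G12.5 by 0.67 in log2 units (SE 0.185, adjusted p = 0.0302) and at G14.5 by 0.53 (SE 0.171, adjusted p = 0.0429). At the other stages the log2 differences from G0 were 0.10 at G3.5, 0.43 at G5.5, 0.25 at G6.5, 0.59 at G8.5, 0.46 at G10.5, 0.55 at G16.5 and 0.49 at G18.5, with adjusted p between 0.0548 at G8.5 and 0.897 at G3.5.

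The calls for Acss2 rest on few libraries. At G12.5 the adjusted p was 0.256 without replicate 1 of G0, 0.0834 without replicate 1 and 0.176 without replicate 2 of G12.5, and 0.0435 without replicate 2 of G0. At G14.5 it was 0.381 without replicate 1 of G0, with a log2 difference of 0.35, and between 0.0626 and 0.0898 without any single library of G14.5. By limma on mean CPM of cells the adjusted p was 0.0954 at G12.5 and 0.284 at G14.5. By edgeR it was 0.0512 at G14.5 without cells in which other hormones held over 5% of hormone reads, insulin included. Among all genes, 5.03% were called at G12.5 and 10.1% at G14.5. In the time course the share called at the other stages against G0 was 0.579% at G3.5, 1.57% at G5.5, 1.65% at G6.5, 5.79% at G8.5, 2.76% at G10.5, 7.25% at G16.5 and 4.77% at G18.5. Of the 54 tests of members at the 9 stages, 6 were called, 2 higher and 4 lower. Markers of other cells moved at these stages too. At G14.5 against G0, 2 of 7 alpha markers fell (Gc and Slc7a2), and the alpha list summed to 646, 501 and 1147 CPM at G14.5 against 648 and 1782 CPM at G0. Their part in the Acss2 value was not tested.

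**Figure D1:**
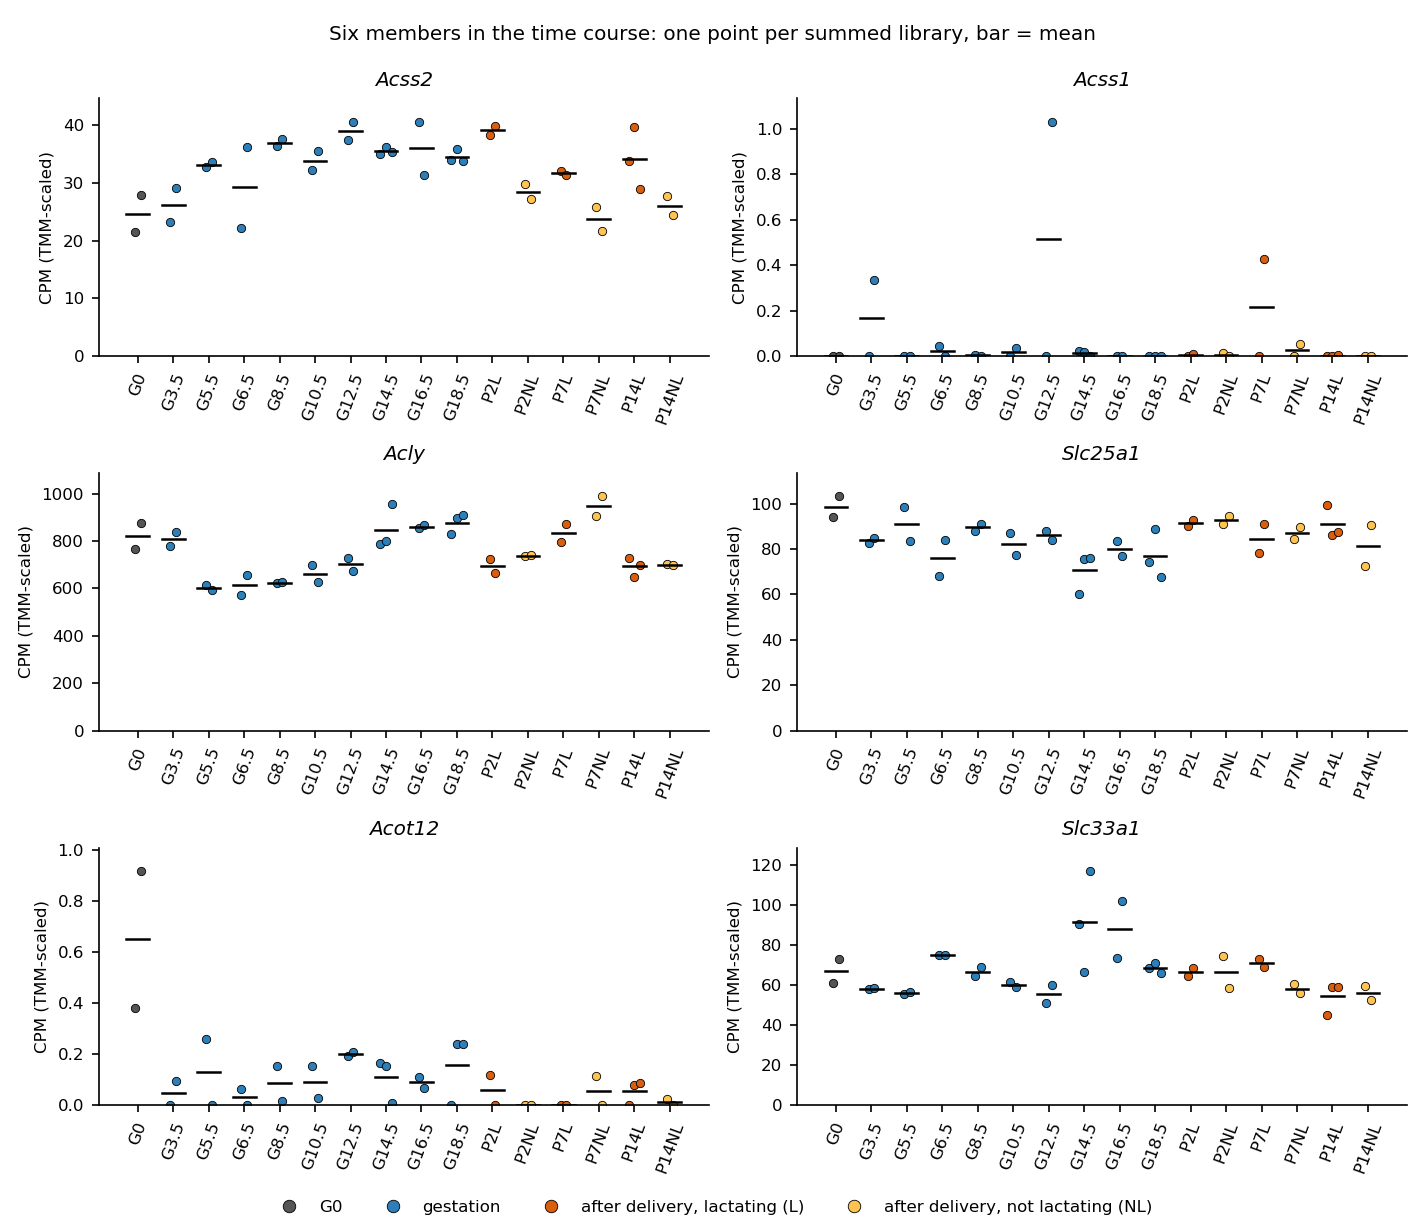
Levels of the 6 members in the 16 groups of the time course, in TMM-scaled CPM on a linear axis that starts at 0 in each panel, with 1 point per summed library and a bar at the group mean. Acss2 runs between 21.4 CPM in a G0 library and 40.6 CPM in a G16.5 library, Acly dips to means between 604 and 624 CPM at G5.5, G6.5 and G8.5, and Acss1 and Acot12 stay at or below 1.03 CPM.

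After delivery, Acss2 was high in lactating mice on day 2. Levels at P2L were 38.3 and 39.8 CPM, against 21.4 and 27.8 CPM at G0, a rise of 0.67 in log2 units (SE 0.185, adjusted p = 0.0433, edgeR). That call was lost without any single library, with adjusted p between 0.0549 and 0.321. The groups did not overlap at P7L, with 32.1 and 31.3 CPM, nor at P14L, with 33.8, 39.7 and 28.9 CPM, but neither was called (adjusted p = 0.351 and 0.134). In mice that were not lactating, Acss2 was at 29.8 and 27.2 CPM at P2NL, 25.7 and 21.6 CPM at P7NL and 27.7 and 24.4 CPM at P14NL, all overlapping with G0. In 36 tests of members after delivery against G0, 1 was called, and the share of all genes called was 2.61% at P2L, 3.35% at P7L, 3.43% at P14L, 0.572% at P2NL, 0.462% at P7NL and 0.28% at P14NL.

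Set directly against each other on the same day, lactating and non-lactating mice differed in the same direction on all 3 days without passing the test. The log2 difference in Acss2, lactating minus not lactating, was 0.46 on day 2, 0.42 on day 7 and 0.39 on day 14, and the libraries did not overlap on any of them, as held for 34.6, 39.1 and 23.4% of all genes tested on those days. Adjusted p was 0.860, 0.596 and 0.450 in that order. Of the 18 member tests in these comparisons 0 were called by edgeR, DESeq2 or limma, and 3 were at an unadjusted p under 0.05. Few genes were called at all, 0.124% on day 2, 0.839% on day 7 and 0.722% on day 14.

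Acly, the enzyme that splits citrate, fell at 3 early stages of gestation and overlapped with G0 again between G14.5 and G18.5. It was at 766 and 875 CPM at G0, 781 and 837 CPM at G3.5, and 615 and 593 CPM at G5.5. It was at 573 and 657 CPM at G6.5, 622 and 627 CPM at G8.5, 697 and 626 CPM at G10.5 and 730 and 672 CPM at G12.5. From G14.5 on all libraries were between 787 and 956 CPM, overlapping with G0 at each of the 3 stages, whereas no library between G5.5 and G12.5 reached the lower G0 library. Against G0, Acly fell by 0.44 on the log2 scale at G5.5 (SE 0.111, adjusted p = 0.0363), by 0.42 at G6.5 (SE 0.111, adjusted p = 0.0463) and by 0.39 at G8.5 (SE 0.111, adjusted p = 0.0292), all by edgeR. At G10.5 and G12.5 the differences were -0.31 and -0.23 and were not called. After delivery Acly was at 667.0 and 724.4 CPM at P2L, 736.9 and 740.8 CPM at P2NL, 794.6 and 871.0 CPM at P7L and 904.3 and 988.5 CPM at P7NL. On day 14 it was at 730.5, 648.5 and 700.8 CPM at P14L and at 703.6 and 697.8 CPM at P14NL. All libraries of P2L, P2NL, P14L and P14NL were thus below both G0 libraries and those of P7NL above both, while P7L overlapped with G0, and none of these 6 groups was called against G0 (adjusted p between 0.211 and 0.988, edgeR). Without replicate 2 of G0 the adjusted p of these 3 calls was between 0.287 and 0.365, and without single libraries of the stages themselves it reached 0.218 at G5.5, 0.375 at G6.5 and 0.146 at G8.5. Without replicate 1 of G0 it was 0.0553 at G6.5. With no filter on low counts the adjusted p was 0.0619, 0.0876 and 0.0679 for G5.5, G6.5 and G8.5, and by limma on mean CPM of cells it was 0.163 or more.

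Hepatocyte transcripts were higher at G8.5. There 4 of 8 hepatocyte markers rose (Mup3, Alb, Apoa2 and Apob), and the list summed to 512 and 357 CPM at G8.5 against 10.4 and 20.6 CPM at G0, where Serpina1a was at 0 in replicate 2. At G5.5 and G6.5 no hepatocyte marker was called, and the list summed to 4.65 and 14.6 CPM at G5.5 and to 11.7 and 52.4 CPM at G6.5. Of the 8 β cell markers, Iapp fell at G8.5, and the β list summed to 609363 and 629595 CPM at G8.5 against 626549 and 642320 CPM at G0. The part of these transcripts in the Acly value at G8.5 was not tested.

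Slc25a1, the citrate carrier, was highest at G0 and lowest at G14.5. It was at 60.1, 75.7 and 76.2 CPM at G14.5, against 94.02 and 103.2 CPM at G0, with no overlap. It fell by 0.48 in log2 units (SE 0.132, adjusted p = 0.0169, edgeR). The adjusted p was 0.161 without replicate 2 of G0 and 0.103 without replicate 1 of G14.5, and 0.0711 by limma. The means of the 15 other groups were below that of G0, between 70.7 CPM at G14.5 and 92.9 CPM at P2NL, and each pair of neighbours in the order of the 16 groups overlapped. In the same order, neighbours overlapped in 14 of 15 pairs for Acss2 and in 13 of 15 pairs for Acly and for Slc33a1.

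Slc33a1, the carrier into the endoplasmic reticulum, was not called at any stage. It was at 90.6, 66.7 and 116.9 CPM at G14.5, against 60.9 and 72.8 CPM at G0, and the difference of 0.45 on the log2 scale had an adjusted p of 0.0818 (edgeR). The G14.5 and G0 libraries overlapped, and at G16.5 it averaged 87.8 ± 20.1 CPM (SD, n = 2). Over all 59 comparisons and interactions of the study Slc33a1 was called 0 times, with 9 tests at an unadjusted p under 0.05, 2 calls by DESeq2 and none by limma.

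Genes that use or feed acetyl-CoA were called at several stages of gestation, and the number called differed between lists. At G14.5 against G0, where 10.1% of all genes were called, 2 of 8 genes for cytosolic NADPH and malate steps rose, Mdh2 by 0.52 and Mdh1 by 0.43 on the log2 scale, and none fell. Of 13 fatty acid synthesis genes, 3 fell: Mlxipl, which encodes the glucose-responsive factor ChREBP, by 1.46, Srebf1, which encodes a lipid synthesis factor, by 0.89, and Fasn, the fatty acid synthase, by 0.61. Of the sterol synthesis genes, Dhcr7 rose by 2.22 and Sqle by 0.61, and Srebf2 fell by 0.60. None of 14 genes of the pyruvate and citrate side in mitochondria, 10 histone acetyltransferases, 11 other thioesterases and acetyl carnitine genes, 6 other acyl-CoA synthetases and acetate carriers or 3 genes of lysine acetylation in the endoplasmic reticulum was called at G14.5. The list medians lay between -0.26 and 0.20, beside 0.01 for all genes.

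At the 3 stages where Acly was called, the share of all genes called was 1.57, 1.65 and 5.79%. At G5.5 no fatty acid synthesis gene was called, and the list median was -0.49. At G6.5 no gene of the 8 lists was called. At G8.5, Elovl5 fell by 0.52, Dhcr7 rose by 1.84 and Fdps by 0.83, and Mdh2 and Mdh1 rose by 0.57 and 0.50. Dhcr7, which encodes the last enzyme of cholesterol synthesis, was also higher at G12.5 by 2.15, where Me1, the cytosolic malic enzyme, rose by 0.95, Mdh2 by 0.63 and Mdh1 by 0.43, and Elovl5 fell by 0.53.

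Other lists had calls at other stages. At G10.5, where 2.76% of all genes were called, Acsf2, an acyl-CoA synthetase, rose by 1.95 in log2 units as 1 of 6 other synthetases and acetate carriers, and Dhcr7 rose by 1.94. At G16.5, with 7.25% of all genes called, Cs, the citrate synthase, rose by 0.57 as 1 of 14 genes of the pyruvate and citrate side, Acat1, a mitochondrial acetyl-CoA acetyltransferase, rose by 0.60 as 1 of 11 other thioesterases and acetyl carnitine genes, and Ep300 fell by 0.84 as 1 of 10 histone acetyltransferases. Acsl3, a long-chain acyl-CoA synthetase, fell by 1.16 there, and Dhcr7, Mdh1 and Mdh2 rose by 2.37, 0.51 and 0.51. At G18.5, with 4.77% of all genes called, Acat1 rose by 0.67 and Slc25a20, the mitochondrial carnitine carrier, by 1.00 (2 of 11), Dhcr7 rose by 2.07, and Mlxipl fell by 0.86. After delivery the calls against G0 were in lactating mice: Dhcr7 rose at P2L by 1.83, at P7L by 2.14 and at P14L by 1.30, Fads1, a fatty acid desaturase, rose by 0.82 and Mlxipl fell by 0.95 at P7L, and Me1 rose by 1.01 and Acsl3 fell by 1.15 at P14L. Whether lactating and non-lactating mice differ in these calls is not shown by that. Compared directly with non-lactating mice on day 7, lactating mice had higher Dhcr7, by 1.37 in log2 units (SE 0.301, adjusted p = 0.0145, edgeR). That comparison had 2 libraries a group, and 0.839% of all genes were called in it. No other gene of the 8 lists was called between lactating and non-lactating mice on day 2, 7 or 14.

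Across the 16 group means of the time course, the members did not follow one another closely. Pearson's r was -0.32 between Acss2 and Acly, -0.18 between Acss2 and Slc25a1, -0.22 between Acly and Slc25a1, and -0.54 between Slc25a1 and Slc33a1. Among 7197 genes with a mean of at least 10 CPM, those most like Acss2 were Car8 (r = 0.91), Txnrd2 (0.89), Gatm (0.88) and Pelp1 (0.88). Those most like Acly were Syt11 (r = 0.84), Skil (0.83), Jarid2 (0.82) and Irf2bpl (0.80). Those most like Slc25a1 were Idua (r = 0.86), Rabep2 (0.85), Slc39a3 (0.84) and Srebf1 (0.83), and those most like Slc33a1 were Tbc1d8b (r = 0.91), Eny2 (0.88), Slc30a5 (0.88) and 1810022K09Rik (0.87). These are descriptions over 16 groups that share their scaling and their animals across genes.

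Acss2 was lower in each Acss2KO library than in each Acss2WT library of the same stage and diet, and it was not lost. On standard diet at G0 it was at 11.3 and 9.76 CPM in Acss2KO, against 18 and 26.1 CPM in Acss2WT. At G14.5 it was at 17.9 and 19.03 CPM in Acss2KO, against 25.5 and 38.5 CPM in Acss2WT, and at G18.5 at 21.7 and 15.8 CPM in Acss2KO, against 27.3 and 32.2 CPM in Acss2WT. The log2 differences were -1.07 (SE 0.246) at G0, -0.79 (SE 0.242) at G14.5 and -0.67 (SE 0.241) at G18.5, and the adjusted p was 1.00, 0.299 and 0.296 in that order (edgeR). Only 0.00711% of 14057 genes were called at G0, 0.0213% at G14.5 and 0.149% at G18.5. With no filter on low counts, the same differences had adjusted p of 0.000755 at G0 and 0.0277 at G14.5. Of the 15 member tests between these genotypes on standard diet 0 were called by edgeR and by limma, 1 by DESeq2 and 4 were at an unadjusted p under 0.05.

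The share of cells with a read of Acss2 differed in the same direction. At G0 it was 52.6 and 51.8% in Acss2KO, against 74.4 and 81% in Acss2WT. At G14.5 it was 83.6 and 80% in Acss2KO, against 86.2 and 95.7% in Acss2WT, and at G18.5 it was 79 and 82% in Acss2KO, against 84.4 and 95.3% in Acss2WT. After every cell was thinned to 200000 reads the G0 shares were 39.7 and 41.2% in Acss2KO, against 61.1 and 72% in Acss2WT. The ranges did not overlap at any of the 3 stages. Where the remaining reads lie on the gene is not given by a count table, so this is a check of the label by level only.

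On high-fat diet Acss2 fell in the knockouts in pregnancy. At G14.5, Acss2 was at 17.3 and 16.4 CPM in Acss2KO, against 48.1 and 41.9 CPM in Acss2WT, and it fell by 1.42 in log2 units (SE 0.219, adjusted p = 0.0120, edgeR). The call was lost without any single library of either group, with adjusted p between 0.0561 and 0.482, and the difference remained between -1.32 and -1.52. In the same comparison 0.0638% of 14115 genes were called. At G0 on high-fat diet, Acss2 was at 18.8 and 11.5 CPM in Acss2KO, against 21.2 and 21.4 CPM in Acss2WT, a log2 difference of -0.49 with an adjusted p of 0.623, where 0% of genes were called and 1094 were at an unadjusted p under 0.05. Of the genes that overlap Acss2 on the opposite strand, Gss, the glutathione synthetase, differed by -0.32 and Ggt7 by -0.13 in log2 units at G14.5, neither of them called, and no value is given here for Acss2os. Of the markers of other cells, 1 of 3 delta markers fell in that comparison.

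**Figure D2:**
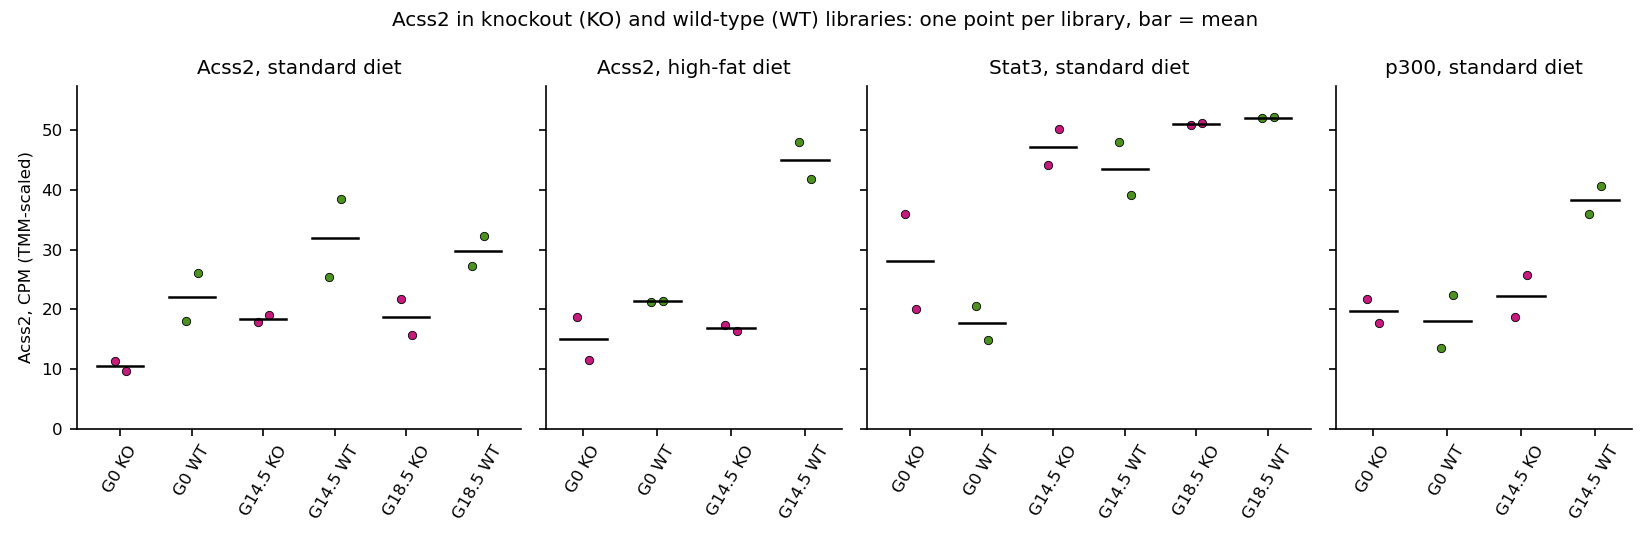
Acss2 in TMM-scaled CPM, on a linear axis that starts at 0, in knockout and wild-type libraries of the Acss2, high-fat diet, Stat3 and p300 tables, with 1 point per library and a bar at the mean. In the Acss2 table and on high-fat diet every knockout library is below every wild-type library of its stage, and on high-fat diet at G14.5 the knockouts are at 17.3 and 16.4 CPM and the wild types at 48.1 and 41.9 CPM.

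No other member was called between these genotypes. In the 5 comparisons of Acss2KO with Acss2WT over both diets, Acly differed by -0.17 to 0.11 on the log2 scale, and Slc25a1 by -0.33 to 0.29, with no call. Slc33a1 was at 53.7 and 51.7 CPM in Acss2KO, against 79.3 and 74.7 CPM in Acss2WT, at G18.5 on standard diet, a log2 difference of -0.55 (SE 0.149, adjusted p = 0.150, edgeR) without overlap. Of the 8 lists around acetyl-CoA, 1 gene was called between the genotypes on standard diet, Mlxipl at G18.5, which was higher in Acss2KO by 0.87 (adjusted p = 0.0325, edgeR).

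Within Stat3WT, Acss2 rose in pregnancy. In Stat3WT it was at 48.04 and 39.1 CPM at G14.5, against 20.6 and 14.9 CPM at G0, and rose by 1.29 in log2 units (SE 0.252, adjusted p = 0.0130, edgeR). At G18.5 it was at 52.02 and 52.2 CPM in Stat3WT and rose by 1.55 over the same G0 libraries (SE 0.253, adjusted p = 0.00266). Replicate 2 of Stat3WT at G0 weighed on both, since without it the log2 differences were 1.08 and 1.34 with adjusted p of 0.191 and 0.0774. The call at G14.5 was also lost without replicate 1 of Stat3WT at G14.5, at an adjusted p of 0.106, and by limma, at 0.0598. In Stat3KO it was at 44.1 and 50.2 CPM at G14.5 and at 50.8 and 51.2 CPM at G18.5, against 35.9 and 20.1 CPM at G0, differences of 0.75 and 0.86 with adjusted p of 0.168 and 0.123.

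Between Stat3KO and Stat3WT, Acss2 was not called. The log2 difference, Stat3KO minus Stat3WT, was 0.65 at G0, 0.11 at G14.5 and -0.03 at G18.5, with adjusted p of 0.528 or more. Stat3 itself was lower by 0.24, 0.27 and 0.36 on the log2 scale at the 3 stages, and none of these was called. At G14.5 it was at 67.4 and 73.7 CPM in Stat3KO, against 80.3 and 90.2 CPM in Stat3WT. At G18.5 it was at 60.7 and 67.45 CPM, against 78.3 and 86.5 CPM. These libraries did not overlap, as held for 38 and 39.8% of all genes tested, while those of G0 overlapped. The counts thus show a lower level in pregnancy by separation only, and no loss of the targeted gene. Of the 45 member tests here, 2 were called. The share of 10207 genes called was 1.74% at G14.5 and 2.06% at G18.5 in Stat3WT, 1.7% and 1.48% in Stat3KO, 0%, 0.0098% and 0.0196% between genotypes at G0, G14.5 and G18.5, and 0% and 0.0392% for the 2 interactions. At an unadjusted p under 0.05 there were 830 genes between genotypes at G0 and 809 in the interaction at G14.5. Hepatocyte markers summed to 23.1 and 618 CPM in Stat3WT at G14.5, against 22.2 and 36.7 CPM at G0, with 1 of 6 tested markers called (Apob). Of 3 immune markers tested there, C1qa rose by 1.63, and the immune list summed to 151.3 and 99.4 CPM at G14.5, against 39.8 and 43.4 CPM at G0, with Cd74 at 0 in both G0 libraries. At G18.5 in Stat3WT, 1 of 4 ductal markers rose, Cftr, which was at 0 in both G0 libraries, and the ductal list summed to 219.7 and 366.9 CPM at G18.5, against 201.7 and 164.6 CPM at G0. The part of these markers in the Acss2 values was not tested.

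In the p300 table, Acss2 was at 35.95 and 40.6 CPM in p300WT at G14.5, against 13.6 and 22.4 CPM at G0, a difference of 1.08 in log2 units (SE 0.270) that missed the threshold at an adjusted p of 0.0595 (edgeR) and was called in 5 of 12 alternatives. Markers of other cells fell in the same comparison: Gcg and Slc7a2 of 7 alpha markers, Sst of 3 delta markers, both PP markers (Pyy and Ppy) and Ahsg of 8 hepatocyte markers. In p300WT the alpha list summed to 114.1 and 148.95 CPM at G14.5, against 320.2 and 825.2 CPM at G0. The delta list was at 11.8 and 12.6 CPM, against 237.2 and 237.6 CPM, the PP list at 8.22 and 3.57 CPM, against 438.9 and 196.3 CPM, and the hepatocyte list at 8.14 and 10.1 CPM, against 35.9 and 43.2 CPM, for the same groups. Their part in the Acss2 value was not tested. In p300KO it was at 18.7 and 25.7 CPM at G14.5, against 21.7 and 17.7 CPM at G0, with overlap and a difference of 0.17. There Gcg, Sst and both PP markers fell, and C1qa, 1 of 2 immune markers tested, rose. The alpha list in p300KO summed to 81.8 and 75.2 CPM at G14.5, against 722.1 and 785.1 CPM at G0. The p300KO libraries at G14.5 lay below those of p300WT, with a log2 difference of -0.79 and an adjusted p of 0.310. The test of the difference between the genotypes in the change from G0 to G14.5 gave -0.91 (SE 0.379, adjusted p = 0.436), so a difference in response was not shown. Ep300, the gene of p300, was lower in p300KO by 1.13 at G0 (adjusted p = 0.0524) and by 0.69 at G14.5 (adjusted p = 0.369), neither called. The share of 13475 genes called was 2.15% in p300WT and 3.27% in p300KO for G14.5 against G0, 1.54% between genotypes at G0, 0% between genotypes at G14.5 (1333 genes at an unadjusted p under 0.05) and 0.0668% for the interaction. Of the 20 member tests here 0 were called by edgeR, 1 each by DESeq2 and limma, and 4 were at an unadjusted p under 0.05.

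On high-fat diet, Acss2 was at 48.1 and 41.9 CPM in Acss2WT at G14.5, against 21.2 and 21.4 CPM at G0, and rose by 1.08 in log2 units (SE 0.218, adjusted p = 0.0115, edgeR). Its adjusted p was between 0.0411 and 0.119 without single libraries, and was 0.0775 and 0.0584 without replicate 1 or 2 of G0 and 0.119 without replicate 1 of G14.5. By limma it was 0.0599. In the mice without a genotype label it was at 41.1, 43.6 and 40.0 CPM in HFD_G14.5, against 24.04 and 28 CPM in HFD_G0, a difference of 0.68 (adjusted p = 0.0934) without overlap. It was at 33.8 and 26.1 CPM in HFD_P7NL, below HFD_G14.5 by 0.47 on the log2 scale (adjusted p = 0.318). In Acss2KO on this diet the G14.5 libraries overlapped with those of G0, with a difference of 0.14, and the difference between the genotypes in this change was -0.93 (SE 0.307, adjusted p = 0.578). Acss2WT on high-fat diet at G14.5 differed from Acss2WT on standard diet, at 33.5 and 35.4 CPM, by 0.39 (adjusted p = 0.484).

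Of the 40 member tests on high-fat diet, 2 were called. The shares of all genes called were 1.93% for G14.5 against G0 in Acss2WT, 3.85% in Acss2KO, 1.95% in the mice without a genotype label, 1.32% for HFD_P7NL against HFD_G14.5, 0.213% between diets and 0.0142% for the interaction. On standard diet, Acss2 at G14.5 and G18.5 against G0 differed by 0.81 and 0.83 in Acss2KO, with no overlap at either stage, and by 0.54 and 0.43 in Acss2WT, and none of the 4 was called (adjusted p between 0.0783 and 0.322). The differences between genotypes in these changes were 0.27 and 0.40 (adjusted p = 0.936 and 0.827).

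Seen over 10 sets of libraries that share none of them, Acss2 at G14.5 was above G0 in 10 of 10, by 0.14 to 1.29 on the log2 scale, without overlap in 7 and with a call in 3. In those sets the share of all genes tested that did not overlap was between 32.8 and 52.6%, with a median of 45%. Slc33a1 was above G0 in 10 of 10 as well, by 0.02 to 0.62, without overlap in 6 and with no call. On mean CPM of cells the Acss2 difference in p300KO was -0.02, where the median of all genes was -0.11, and 0.09 relative to that median. Acly was above G0 in 5 sets and below it in 5, between -0.13 and 0.28, with no call. Slc25a1 was below G0 in 8 sets, by at most 0.48, and called in the time course only.

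**Figure D3:**
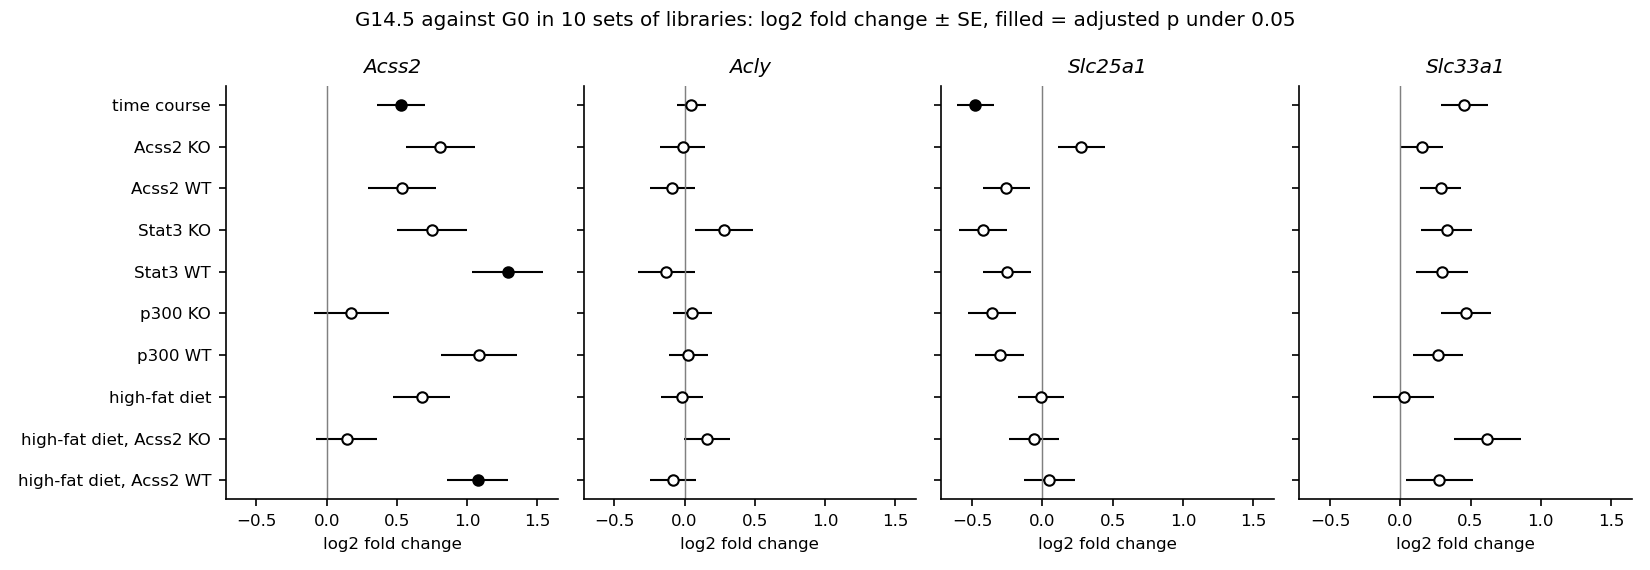
Log2 fold change of G14.5 against G0 for 4 members in 10 sets of libraries, with bars of 1 SE and filled points where the adjusted p of edgeR was under 0.05. Acss2 lies right of 0 in each set, between 0.14 in Acss2KO on high-fat diet and 1.29 in Stat3WT, while the 10 values of Acly scatter around 0.

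Slc25a1 fell once more in the knockout tables, in Acss2WT on standard diet at G18.5. It was at 53.9 and 59.6 CPM at G18.5, against 85.4 and 86.2 CPM at G0, lower by 0.60 on the log2 scale (log2 difference -0.60, SE 0.170, adjusted p = 0.0456, edgeR). The call was lost without any single library of these groups, with adjusted p between 0.104 and 0.210. In Acss2KO it was at 57.7 and 81.4 CPM at G18.5, against 64.8 and 71.9 CPM at G0, and the difference between the genotypes in this change was 0.62 (adjusted p = 0.541). Slc33a1 in Acss2WT was at 79.3 and 74.7 CPM at G18.5, against 52.9 and 55.4 CPM at G0, a difference of 0.51 with an adjusted p of 0.0522. Of the 30 member tests within these genotypes, 1 was called. The share of genes called was 2.92% at G14.5 and 6.89% at G18.5 in Acss2WT, 4.35% and 2.47% in Acss2KO, and 0.0213% and 0.0142% for the interactions. In Acss2WT at G18.5 markers of other cells were called as well, 2 of 2 PP markers and 3 of 8 hepatocyte markers lower and 2 of 6 acinar markers higher. Their part in the Slc25a1 value was not tested.

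In cultured islets Acly fell with A485 in both sera. In maternal serum Acly was at 481 and 422 CPM with A485, against 1012 and 870 CPM with vehicle, and fell by 1.06 in log2 units (SE 0.141, adjusted p = 0.00274, edgeR). In normal serum it was at 419 and 494 CPM with A485, against 800 and 931 CPM with vehicle, and fell by 0.92 (SE 0.141, adjusted p = 0.00791). All 4 A485 libraries were below all 4 vehicle libraries. The call in maternal serum held in 12 of 12 alternatives, and that in normal serum was lost without replicate 1 (adjusted p = 0.130) or replicate 2 (adjusted p = 0.0620) of A485. The 2 sera did not differ in the effect by test, with a difference of -0.14 (SE 0.197, adjusted p = 1.00). Among 13554 genes, 3.3% were called with A485 in maternal serum and 2.57% in normal serum.

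The citrate carrier moved the other way. In normal serum Slc25a1 was at 129.7 and 115.9 CPM with A485, against 77.1 and 78.9 CPM with vehicle, and rose by 0.66 in log2 units (SE 0.134, adjusted p = 0.0296, edgeR). That call was lost without any single library, with adjusted p between 0.0761 and 0.215. In maternal serum it was at 129.7 CPM in both A485 libraries, against 93.3 and 100.6 CPM with vehicle, a difference of 0.42 (SE 0.133, adjusted p = 0.117). Acss2 was also above vehicle with A485, without overlap, at 22.8 and 29.2 CPM against 19.4 and 15.1 CPM in normal serum and at 24.9 and 29.1 CPM against 17.8 and 19.8 CPM in maternal serum. These differences of 0.60 and 0.52 were not called (adjusted p = 0.217 and 0.266). Slc33a1 differed by -0.20 and -0.22 and was not called. On mean CPM of cells it was above vehicle, by 0.30 and 0.18. Relative to the median of all genes on that scale it differed by -0.16 and -0.23.

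The scale of these values depends on the insulin share of the libraries. Ins1 and Ins2 took 48.1 and 49.6% of reads with A485, against 61.3 and 59.9% with vehicle, in normal serum, and 35.5 and 36.3% with A485, against 51.2 and 41.7% with vehicle, in maternal serum. On mean CPM of cells, a scale without TMM, the median of all genes shifted by 0.45 and 0.41 on the log2 scale, and Acly differed by -0.37 (limma, adjusted p = 0.100) in normal serum and -0.63 (limma, adjusted p = 0.0190) in maternal serum. Relative to that shift these are -0.83 and -1.04. Acss2 differed on it by 1.15 (limma, adjusted p = 0.0112) in normal serum and 0.85 (limma, adjusted p = 0.0423) in maternal serum, which is 0.69 and 0.44 relative to the shift. On the same scale Slc25a1 differed by 1.12 and 0.87, and by 0.66 and 0.47 relative to the shift. Without Ins1 and Ins2 in the fit, the Acly differences were -0.90 and -1.05. The split of all genes moved with the scale, with 78 higher and 271 lower in normal serum by edgeR, against 2980 higher and 174 lower by limma on mean CPM of cells, and 95 higher and 352 lower, against 2220 and 262, in maternal serum.

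β cell and other markers moved with A485. Of 8 β markers, 4 fell in each serum (Ins1, Ins2, Iapp and Slc2a2), and the list summed to 516416 and 537688 CPM with A485, against 656110 and 653296 CPM with vehicle, in normal serum, and to 403499 and 418890 CPM with A485, against 577544 and 498595 CPM with vehicle, in maternal serum. Gc, 1 of the 5 alpha markers tested, fell in both, and so did C1qa, 1 of the 2 immune markers tested. The immune list summed to 4.29 and 9.57 CPM with A485, against 23.5 and 19.1 CPM with vehicle, in normal serum, and C1qb was at 0 in every library of the A485 set. The delta list summed to 125.9 and 112.8 CPM with A485, against 2470 and 474 CPM with vehicle, in normal serum, where Sst fell. Krt7, 1 of 3 ductal markers tested, fell by 0.62 in normal serum, where the ductal list summed to 303.5 and 281.9 CPM with A485, against 317.6 and 285.2 CPM with vehicle. In maternal serum 2 of 8 hepatocyte markers were called in opposite directions, Fgb lower by 4.23 (log2 difference -4.23) and Apoa1 higher by 3.34, and the list summed to 48.2 and 91.8 CPM with A485, against 85.3 and 67.3 CPM with vehicle. Their part in the Acly value was not tested.

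**Figure D4:**
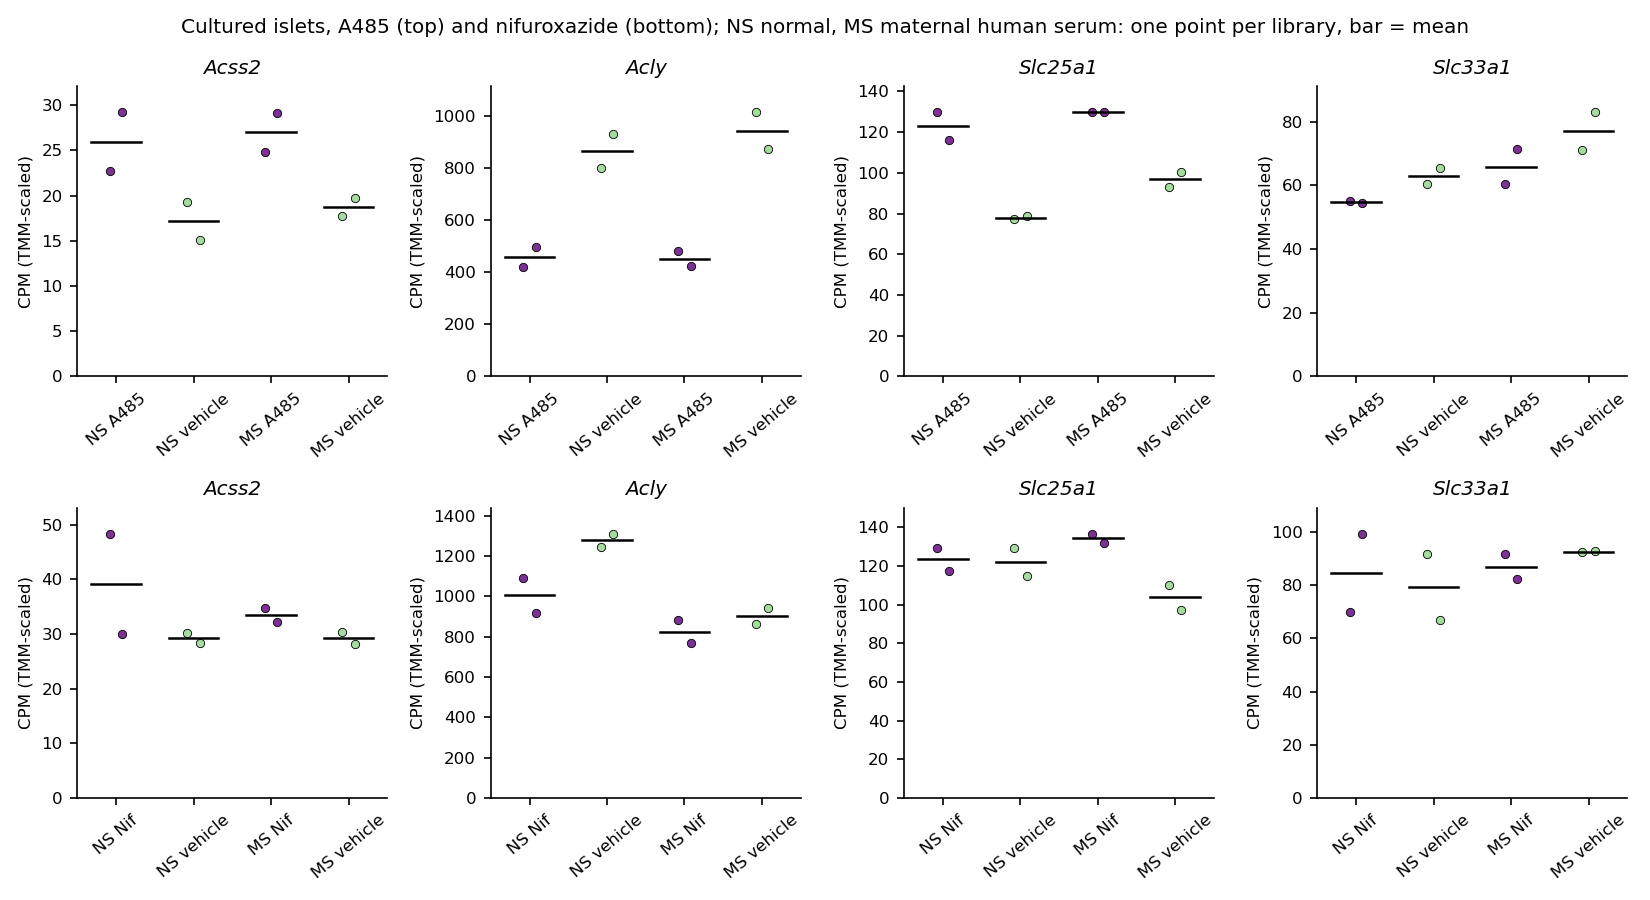
Levels of 4 members in cultured islets, in TMM-scaled CPM on linear axes that start at 0, with A485 and its vehicle in the upper row and nifuroxazide and its vehicle in the lower row, 1 point per library and a bar at the mean. The A485 libraries hold Acly between 419 and 494 CPM in both sera, below their vehicle libraries at 800 to 1012 CPM, and with nifuroxazide the Acly libraries are apart from vehicle in normal serum only.

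Some genes of lipid synthesis fell with A485. In maternal serum 3 of 12 fatty acid synthesis genes tested fell, Scd2, a stearoyl-CoA desaturase, by 1.30, Mlxipl by 1.07 and Srebf1 by 0.97 on the log2 scale, and none rose. In normal serum 2 of 12 fell, Srebf1 by 0.95 and Mlxipl by 0.83. Of 17 sterol synthesis genes, Insig1, a brake on sterol-dependent transcription, fell by 1.13 in maternal serum. In normal serum Insig1 fell by 1.51 and Cyp51, a demethylase of sterol synthesis, by 1.05. Fasn, which takes up the acetyl-CoA that Acly makes, differed by -0.11 in maternal serum and by -0.23 in normal serum and was not called. The list medians were -0.77 and -0.67 in maternal serum and -0.40 and -0.56 in normal serum for fatty acid and sterol synthesis in that order, beside -0.01 and -0.02 for all genes. Of the other lists, Dld fell by 0.74 in normal serum among 13 genes of the pyruvate and citrate side, and Crebbp, the gene of the p300 relative CBP, rose by 0.70 in maternal serum among 10 acetyltransferases.

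**Figure D5:**
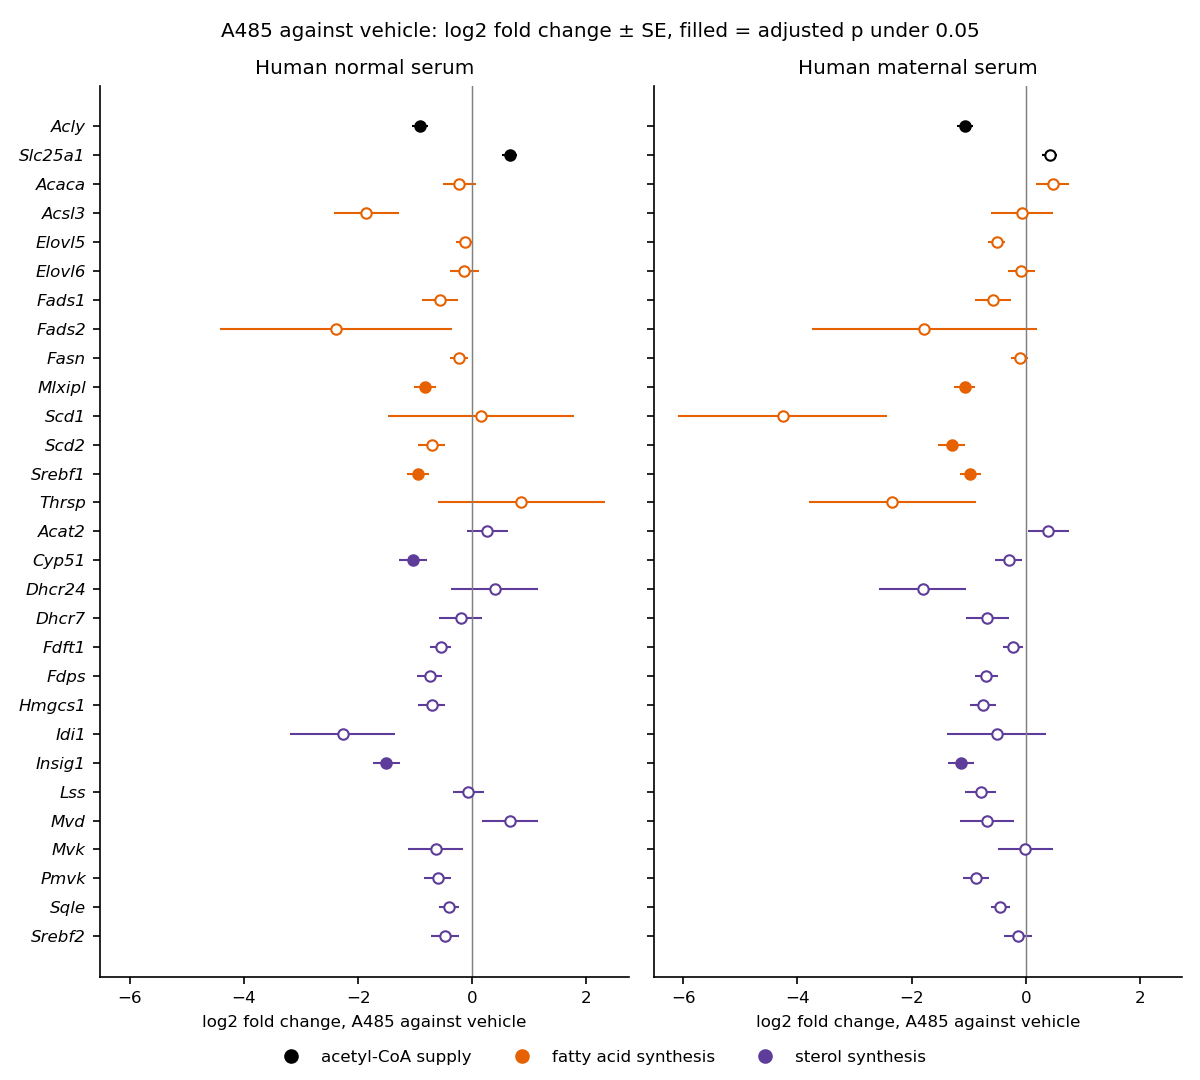
Log2 fold change of A485 against vehicle in normal and maternal serum for Acly, Slc25a1, 12 fatty acid synthesis genes and the sterol synthesis genes reported here, with bars of 1 SE and filled points where the adjusted p of edgeR was under 0.05. Acly is filled left of 0 in both panels at -0.92 and -1.06, Slc25a1 lies right of 0 in both, and most points of both lists lie left of 0, with wide bars for genes of low counts such as Scd1 and Fads2.

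No member was called between the sera. Between the vehicle libraries of the A485 set, maternal minus normal serum, Acss2 differed by 0.13, Acly by 0.12, Slc25a1 by 0.31 and Slc33a1 by 0.29 on the log2 scale, none of them called, while 0.657% of genes were called. With A485 present the 2 sera differed by 0.08 or less for Acss2, Acly and Slc25a1 and by 0.27 for Slc33a1, which was not called (adjusted p = 0.646, edgeR) and whose libraries did not overlap. Of all genes 0.288% were called there, and 0.00738% were called in the interaction of serum and A485. Of the 25 member tests of the A485 set, 3 were called, 1 higher and 2 lower.

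With nifuroxazide no member was called. Acly was at 881 and 768 CPM with nifuroxazide, against 862 and 945 CPM with vehicle, in maternal serum, and at 1092 and 919 CPM with nifuroxazide, against 1245 and 1310 CPM with vehicle, in normal serum. The log2 differences were -0.13 and -0.35, with adjusted p of 0.862 and 0.248 (edgeR), and only the libraries in normal serum were apart. On mean CPM of cells Acly differed by -0.07 in maternal and 0.07 in normal serum, where the all-gene median shifted by 0.16 and 0.30. Relative to that shift the difference was -0.23 in each serum. In normal serum Ins1 and Ins2 took 37.9 and 38.5% of reads with nifuroxazide, against 47.7 and 49.1% with vehicle. Acss2 was at 34.8 and 32.1 CPM with nifuroxazide, against 30.4 and 28.1 CPM with vehicle, in maternal serum, and at 48.3 and 29.9 CPM with nifuroxazide, against 30.2 and 28.4 CPM with vehicle, in normal serum. Between the vehicle libraries of this set Acly differed by -0.50 (SE 0.138, adjusted p = 0.141), maternal minus normal serum, without overlap. In the A485 set the corresponding difference was 0.12, so the 2 vehicle sets did not share a direction. Of the 20 member tests 0 were called by edgeR and by limma, 1 by DESeq2, and 3 were at an unadjusted p under 0.05. Among 13481 genes the share called was 0.697% with nifuroxazide in maternal serum, 1.99% in normal serum, 1.02% between sera with vehicle, 0.49% between sera with nifuroxazide and 0% for the interaction, where 886 genes were at an unadjusted p under 0.05.

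Over all 59 comparisons and interactions, 15 of 303 member tests were called, 7 higher and 8 lower, beside 1.83% of the 810560 tests of all genes. Acss2 accounted for 7 of them, 6 higher and 1 lower, Acly for 5, all lower, and Slc25a1 for 3, 1 higher and 2 lower. Of 38 tests of interactions on members 0 were called by edgeR, DESeq2 or limma, with 6 at an unadjusted p under 0.05, so no member was shown to respond differently between genotypes or sera.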

How the data were processed

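The authors deposited 7 tables of read counts per gene and cell, 1 column per cell, with a gene length column. The tools named are featureCounts 2.0.1, Cell Ranger 3.1.0 and Trimmomatic 0.39, with the build GRCm38 (mm10), per the submitters' processing notes. Aligner, gene annotation and strand use in counting were not given in the sources used. Reads were counted without molecular identifiers in the tables, so counts are reads and not molecules. There were 12791 usable genes for Stat3 and 21176 for p300, after 1 incomplete gene row was dropped from each. A further 2 droplet islet samples were not analysed here.

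Cells are not replicates, so counts were summed by group and replicate into 100 libraries. Each table was fitted on its own with edgeR 4.0.16 in R 4.3.3 (TMM scaling, filterByExpr, quasi-likelihood test, Benjamini-Hochberg adjustment over all genes tested, threshold 0.05), over all groups of the table and without a block. SE is the absolute log2 fold change over the root of F. RPKM divides the scaled CPM by the deposited gene length in kilobases. Shares of cells with a read were also computed after thinning each cell to 200000 reads, leaving out shallower cells. Alternatives were DESeq2 1.42.0, limma 3.58.1 on log2(mean CPM of cells + 1), size factors of DESeq2's kind (RLE), no filter and a replicate block. Further fits left out Ins1 and Ins2, cells under 200000 reads, or each library in turn. Another left out cells in which Gcg, Sst, Ppy and Pyy held over 5% of hormone reads, Ins1 and Ins2 included. Python 3.11.15 did the sums. The fit was tested on counts simulated for 14057 genes in the design of the Acss2 table, for G14.5_Acss2KO against G14.5_Acss2WT. It called 36 of 100 genes changed by 1 on the log2 scale and 68 of 100 changed by 2, and 5 unchanged genes. Many true differences of 1 or less would thus be missed at this group size.

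The text names the 6 members, the targeted genes and, from 8 lists of 85 genes, up to 4 called genes a list with the largest change. For likeness it names 4 genes a member. Markers and the genes that overlap Acss2 are named in addition. Some genes of these lists are not reported here. The members and lists were chosen with earlier results of these data known. Samples were grouped by their labels. Comparisons that share a G0 or vehicle group are not independent of each other. Same-numbered replicates did not deviate together in every pair (lowest correlation -0.16), so the numbers were not taken as pairs.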

Additional observations from a re-analysis of the deposited data

Results flagged for a closer look

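Slc25a1 at G14.5 against G0 moved in opposite directions in libraries that did not overlap. It was lower in the time course (log2 difference -0.48), in Acss2WT (-0.26), in Stat3WT (-0.25), in Stat3KO (-0.42), in p300WT (-0.31) and in p300KO (-0.36), and higher in Acss2KO (0.28). Within 1 table, the difference between Acss2KO and Acss2WT in this change was tested and not called (0.53, SE 0.240, adjusted p = 0.803, edgeR). Differences between the other tables were not tested. On high-fat diet the G14.5 against G0 differences were near 0, at -0.01 without a genotype label, -0.06 in Acss2KO and 0.05 in Acss2WT. Over the 10 contrasts of G14.5 against G0, between 32.8 and 52.6% of all genes tested did not overlap, with a median of 45%.

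Slc33a1 in Acss2KO against Acss2WT also lay on opposite sides without overlap. It was lower on standard diet at G14.5 (log2 difference -0.15) and at G18.5 (-0.55), and higher on high-fat diet at G14.5 (0.20). The difference between the diets was not tested. In these 3 comparisons 41.6, 36.7 and 43.1% of all genes tested did not overlap, in that order.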

How the results depend on the processing

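Of 303 member tests, 15 were called by edgeR, 14 with RLE scaling, 15 without Ins1 and Ins2, 14 without cells high in other hormones, 15 without shallow cells, 16 with the replicate block, 27 by DESeq2 and 12 by limma on mean CPM of cells, of which 5 were among the 15. With no filter 23 of 349 were called, 12 of the 15 among them. None of the 15 calls changed sign. Differences not called could change sign on mean CPM of cells. Examples are Acss2 in p300KO at -0.02, Slc33a1 with A485 at 0.30 and 0.18, and Acly with nifuroxazide in normal serum at 0.07. Relative to the all-gene median on that scale, these were 0.09 for Acss2, -0.16 and -0.23 for Slc33a1 and -0.23 for Acly, with the signs of edgeR. The numbers of calls moved by more than 1.5 times as follows. By limma there were 0 calls for the stages of gestation (6 by edgeR), 2 after delivery (1 by edgeR), 1 in the Stat3 table (2 by edgeR), 1 in the p300 table (0 by edgeR) and 5 with A485 (3 by edgeR). By DESeq2 there was 1 call between Acss2 genotypes on standard diet, 4 within them (1 by edgeR), 1 in the p300 table and 1 with nifuroxazide. With no filter there were 2 between Acss2 genotypes, 3 within them, 4 in the Stat3 table, 1 in the p300 table and 1 with nifuroxazide. With RLE there were 0 after delivery, and with the replicate block 1 in the p300 table. The cause was not tested. Without single libraries the calls ran between 2 and 7 for gestation, 0 and 1 after delivery, 0 and 1 within Acss2 genotypes, 0 and 4 in the Stat3 table, 0 and 1 in the p300 table, 0 and 3 on high-fat diet and 1 and 3 with A485, and stayed at 0 for lactation, between Acss2 genotypes and with nifuroxazide. A group left with 1 library was assumed to vary like the others. The replicate block lost none of the 15 calls. On mean CPM of cells the all-gene median moved by -0.16 to 0.32 outside the A485 table. Groups of 2 limit the precision throughout, and depth limits Acss1 and Acot12.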
